A study of Homo sapiens with 6 samples.

Results

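The replication-independent histone variants are described here through 9 genes: H2AX, H2AZ1, H2AZ2, H2AJ, MACROH2A1, MACROH2A2, H3-3A, H3-3B and H1-10. They were chosen by name, as the variant histone genes with polyadenylated transcripts, out of 60612 genes in the table. The rule itself uses no measured value, but the set was drawn up with earlier results of these data known. The RNA came from U87, an established human glioblastoma cell line. Cells carried a lentiviral scramble shRNA (NC, 3 libraries) or a lentiviral shRNA against the arginine methyltransferase PRMT6 (shPRMT6, 3 libraries), so both groups had been exposed to virus and, by the methods, to puromycin selection. The model is therefore 1 cell line with stable knockdown pools, and the shRNA that was sequenced is not named in the sources used here. The libraries are described as independent replicates.

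Most histone genes are switched on in S phase, when new DNA has to be packaged, and their mRNAs end in a stem-loop in place of a poly(A) tail. Variant histones escape this rule: their genes have introns or poly(A) signals, are transcribed through the cell cycle, and their proteins are placed into chromatin by dedicated chaperones and remodelling complexes. H2A.Z marks promoters and enhancers, H2A.X is phosphorylated around DNA breaks, macroH2A carries a large extra domain and is enriched in silent chromatin, and H3.3 replaces H3 in transcribed genes and at telomeres. PRMT6 is itself a histone-modifying enzyme, which methylates arginines in histone H3 and histone H2A among other proteins.

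The counts summed to between 56388161 and 75887696 in NC and between 61805330 and 67630740 in shPRMT6, and scaling factors for library composition lay between 0.9923 and 1.01. PRMT6 itself (ENSG00000198890) had 522, 606 and 449 counts in the NC libraries (replicates 1 to 3 in order, here and below) and 227, 282 and 355 in the shPRMT6 libraries. It fell by 0.87 on the log2 scale (SE 0.187), with an adjusted p of 0.0225 (edgeR's quasi-likelihood test, adjusted over all genes by Benjamini-Hochberg). The adjusted p rose to 0.0613 when NC replicate 1 was left out, and to 0.0588 and 0.0713 when shPRMT6 replicates 1 and 2 were. It was 0.0803 with the replicate number as a block and 0.172 with limma on log2(FPKM + 1) without an FPKM filter, where the log2 fold change was -0.47. Of the markers fixed for U87, VIM, CD44 and S100A10 were abundant, whereas the glial marker GFAP had 11 to 60 counts and the stem cell marker SOX2 had 0 to 26. Of the 7, CHI3L1 (log2 fold change 1.62, adjusted p 0.00294 in edgeR) and S100A10 (0.33, adjusted p 0.0146 in edgeR) rose in shPRMT6 and none fell. Of 10 markers of other cell types, KRT5 had no count, PTPRC and CDH5 had 0 to 4 counts, and none of the 7 that were tested passed the threshold in edgeR, PECAM1 alone having an unadjusted p under 0.05. Their summed level lay between 172.9 and 282.2 CPM (counts relative to library size, TMM-scaled) in NC and between 171.2 and 342.7 CPM in shPRMT6 and came largely from CD68.

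The 4 genes H2AX, H1-10, H2AZ2 and H2AZ1 had lower RNA after PRMT6 knockdown, and no member passed the test in the higher direction. The falls ran from 1.37 on the log2 scale for H2AX, to 38.7% of the control level, to 0.60 for H2AZ1, to 65.8% of the control level. MACROH2A1 was lower by a small amount that just missed the threshold, H3-3A, H3-3B and H2AJ did not pass it, and MACROH2A2 was barely detected. Of the 9 members, 8 passed the filter on low counts and were tested, and 4 of these 8 (50%) passed an adjusted p of 0.05, all 4 downwards, with edgeR and with DESeq2. At an unadjusted p under 0.05 the count was 5 downwards and 0 upwards. Over all 18106 genes tested, 18.6% passed, 9.06% downwards and 9.51% upwards. The median log2 fold change of the 8 members was -0.42, beside -0.01 over all genes tested. In RNA from a whole culture, a smaller share of cells in a state that uses a gene and less of its RNA per cell cannot be told apart.

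**Figure D1:**
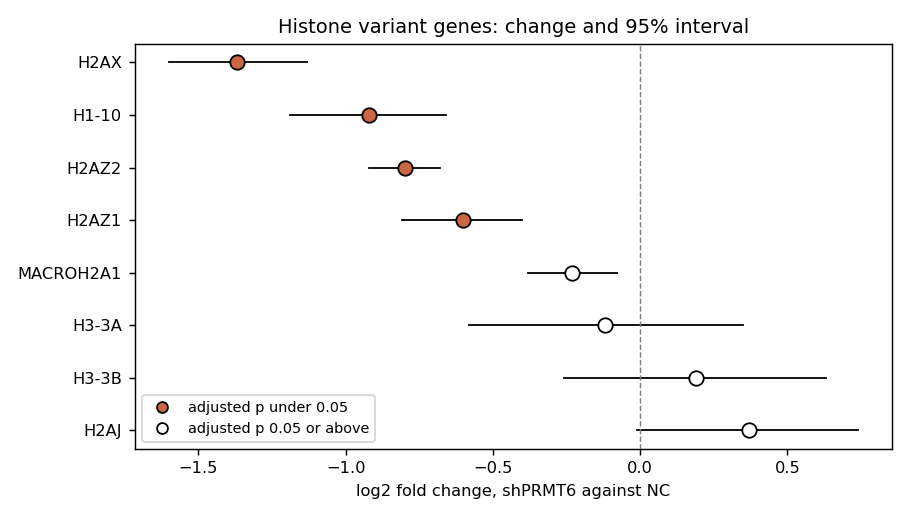
Log2 fold change of the 8 tested histone variant genes (shPRMT6 against NC, x axis), with its 95% interval as a line. Filled points passed an adjusted p of 0.05: H2AX, H1-10, H2AZ2 and H2AZ1 lie left of 0, with H2AX farthest at -1.37, whereas the intervals of H3-3A, H3-3B and H2AJ include 0.

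H2AX encodes the H2A form whose phosphorylated tail recruits repair factors to broken DNA. The gene has 1 exon and spans 119093854 to 119095467 of chromosome 11 (GRCh38, minus strand). Its mRNA can end in a stem-loop as well as in a poly(A) tail. It had 2787, 3402 and 3284 counts in NC, and 1304, 1158 and 1200 in shPRMT6. Scaled to library size by TMM, these were 49.8, 44.7 and 52.6 CPM in NC and 20.5, 18.8 and 17.7 CPM in shPRMT6. The groups were far apart: the lowest NC library was above the highest shPRMT6 library by more than the whole range within either group. By any margin, 19.9% of genes tested had groups that were apart in this direction. The mean went from 49.1 ± 3.99 to 19.0 ± 1.39 CPM (SD, n = 3 each), a log2 fold change of -1.37 (SE 0.0981, 95% interval -1.60 to -1.13), with an adjusted p of 0.000737 by edgeR's quasi-likelihood test. H2AX ranked 92 by p among all genes tested. It passed the threshold in all 15 alternative analyses, with log2 fold changes from -1.43 to -1.28. The study also displayed H2AX among lowered genes that it picked from these same libraries, so its direction here is not independent evidence.

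H2AZ1 and H2AZ2 encode the nearly identical H2A.Z proteins from separate genes with introns. H2AZ1 lies on chromosome 4 from 99948086 to 99950388 (minus strand, 5 exons in its principal transcript), and H2AZ2 on chromosome 7 from 44826791 to 44848083 (minus strand, also 5 exons). H2AZ1 had 23646, 27795 and 26707 counts in NC and 18400, 15674 and 17399 in shPRMT6, which is 422.9, 365.6 and 427.9 CPM against 289.0, 254.7 and 256.9 CPM. The highest shPRMT6 library was thus below the lowest NC library, as in 19.9% of genes tested. Its mean fell from 405.4 ± 34.6 to 266.9 ± 19.2 CPM (SD, n = 3 each), with a log2 fold change of -0.60 (SE 0.0855, 95% interval -0.81 to -0.40) and an adjusted p of 0.00556 in edgeR.

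H2AZ2 had 8338, 11290 and 9171 counts in NC and 5377, 5278 and 5723 in shPRMT6. After scaling, the libraries of a group were almost level, at 149.1, 148.5 and 146.9 CPM in NC and 84.5, 85.8 and 84.5 CPM in shPRMT6, a coefficient of variation of 0.759% and 0.875%. The mean fell from 148.2 ± 1.12 to 84.9 ± 0.743 CPM (SD, n = 3 each), to 57.3% of the control level. This is a log2 fold change of -0.80 (SE 0.0503, 95% interval -0.92 to -0.68), with an adjusted p of 0.000508 in edgeR, the smallest p of the group although not the largest fold. H2A.Z RNA from both genes together went from 553.6 ± 34.3 to 351.8 ± 18.8 CPM.

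**Figure D2:**
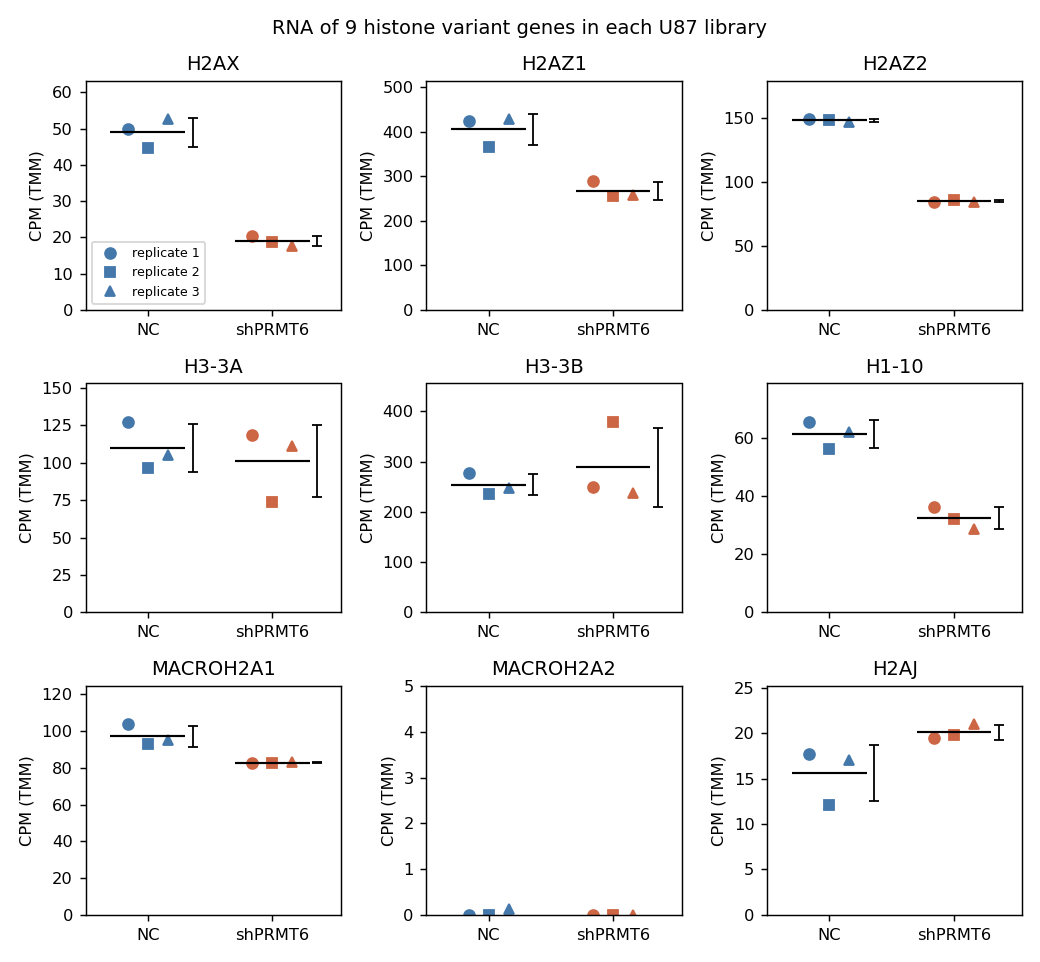
CPM (TMM-scaled, y axis from 0, own scale for each gene) of the 9 histone variant genes in each NC and shPRMT6 library; symbols mark the replicate number, horizontal lines the mean and bars the SD over 3 libraries. NC and shPRMT6 libraries are separate for H2AX, H2AZ1, H2AZ2, H1-10 and, by small margins, MACROH2A1 and H2AJ. Of all genes tested, 19.9% were separate in the lower and 20.3% in the higher direction. MACROH2A2, drawn without mean and SD, had counts in NC replicate 3 alone.

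The balance between the paired H2A.Z genes was compared as the log2 ratio of their counts within a library. It was 1.50, 1.30 and 1.54 in NC and 1.77, 1.57 and 1.60 in shPRMT6, so every shPRMT6 library was above every NC library, by as little as 0.03 at the closest pair. The mean difference was 0.20, with an exact two-sided permutation p of 0.1, the smallest that 3 libraries against 3 allow. The difference was 0.13 without NC replicate 2. H2AZ1 contributed 71.1% to 74.4% of the paired counts in NC and 74.8% to 77.4% in shPRMT6.

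H2AX had the largest log2 fold change of the lowered members, and it was set beside the others within each library. Its log2 count ratio to H2AZ1 went from -3.05 ± 0.0335 to -3.81 ± 0.05 (SD, n = 3 each), its ratio to H2AZ2 from -1.60 ± 0.125 to -2.16 ± 0.107, and its ratio to H1-10 from -0.32 ± 0.0781 to -0.76 ± 0.0675. The groups were separate for each of these ratios, which were added after the values of the genes had been seen. Each had an exact permutation p of 0.1, again the smallest possible, and 0.125 after Benjamini-Hochberg adjustment over the 5 ratios computed, a design in which none can pass 0.05.

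H2AJ encodes a mammalian H2A variant that differs from canonical H2A mostly at its tail and is known to accumulate in senescent cells. It lies on chromosome 12 from 14774383 to 14778002 (plus strand). The counts were 991, 920 and 1060 in NC and 1239, 1219 and 1422 in shPRMT6, or 17.7, 12.1 and 17.0 CPM against 19.5, 19.8 and 21.0 CPM. All shPRMT6 libraries were above all NC libraries, in which replicate 2 was the low one. Among genes tested, 20.3% had groups that were apart in this direction. The log2 fold change was 0.37 (SE 0.155, 95% interval -0.01 to 0.74) with an adjusted p of 0.159 in edgeR, and none of the 15 alternatives brought it past the threshold. The log2 fold change was 0.21 without NC replicate 2.

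MACROH2A1 and MACROH2A2 encode H2A variants fused to a macrodomain, a fold that in one MACROH2A1 splice form binds ADP-ribose. MACROH2A1 lies on chromosome 5 from 135333900 to 135399914 (minus strand, 9 exons in its principal transcript). Its counts were 5800, 7057 and 5922 in NC and 5246, 5084 and 5637 in shPRMT6, or 103.7, 92.8 and 94.9 CPM against 82.4, 82.6 and 83.2 CPM. The shPRMT6 libraries were all below the NC libraries, as in 19.9% of genes tested. The mean of 82.7 ± 0.429 CPM was 85.2% of the 97.1 ± 5.80 CPM in NC (SD, n = 3 each). The log2 fold change of -0.23 (SE 0.0639, 95% interval -0.38 to -0.08) had an adjusted p of 0.0502 in edgeR. Over 15 alternatives the adjusted p ran from 0.0426 to 0.157 and passed the threshold in 3: no scaling factors (0.0426), at least 10 counts in every library (0.0445), and without NC replicate 2 (0.0438).

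MACROH2A2, on chromosome 10 from 70052796 to 70112280 (plus strand), had 0, 0 and 8 counts in NC and no count in any shPRMT6 library. With 3 counts as the limit that a count of 0 allows, the libraries could have missed up to 0.0395 to 0.0536 CPM, by counting error alone. It was left out by the filter, no fold change was computed, and its ratio to MACROH2A1 has no value in 5 of 6 libraries. In this U87 stock, macroH2A RNA thus came almost wholly from MACROH2A1.

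H3-3A and H3-3B encode the same H3.3 protein from separate genes, H3-3A on chromosome 1 from 226061851 to 226072001 (plus strand) and H3-3B on chromosome 17 from 75776434 to 75785893 (minus strand). H3-3A had 7121, 7349 and 6561 counts in NC and 7556, 4521 and 7526 in shPRMT6, or 127.3, 96.7 and 105.1 CPM against 118.7, 73.5 and 111.1 CPM. H3-3B had 15498, 17987 and 15505 counts in NC and 15875, 23366 and 16085 in shPRMT6, or 277.1, 236.6 and 248.4 CPM against 249.4, 379.7 and 237.5 CPM. The groups overlapped for both genes, and 1 library stood apart in opposite directions: shPRMT6 replicate 2 was the lowest of all for H3-3A and the highest of all for H3-3B.

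The log2 fold change was -0.12 for H3-3A (SE 0.195, 95% interval -0.58 to 0.35, adjusted p 0.728 in edgeR) and 0.19 for H3-3B (SE 0.184, 95% interval -0.26 to 0.63, adjusted p 0.543 in edgeR). Both turned sign without shPRMT6 replicate 2, to 0.07 for H3-3A and -0.06 for H3-3B. In that library H3-3A lay 0.64 below, and H3-3B 0.64 above, the mean of the other 2 shPRMT6 libraries on the log2 scale. Of 11325 genes averaging at least 1 FPKM, 610 (5.39%) and 614 (5.42%) lay at least as far off in it. The summed H3.3 RNA of this library was 453.1 CPM, beside 368.0 and 348.6 CPM in the other shPRMT6 libraries and 333.2 to 404.5 CPM in NC.

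The log2 count ratio of H3-3A to H3-3B was -1.12, -1.29 and -1.24 in NC and -1.07, -2.37 and -1.10 in shPRMT6. Both other shPRMT6 libraries were thus slightly above the NC libraries and replicate 2 was far below them. The mean difference was -0.29 (exact two-sided permutation p = 1), and it was 0.13 without shPRMT6 replicate 2. H3-3A made up 29% to 31.5% of the paired counts in NC, 32.2% and 31.9% in shPRMT6 replicates 1 and 3, and 16.2% in replicate 2.

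**Figure D3:**
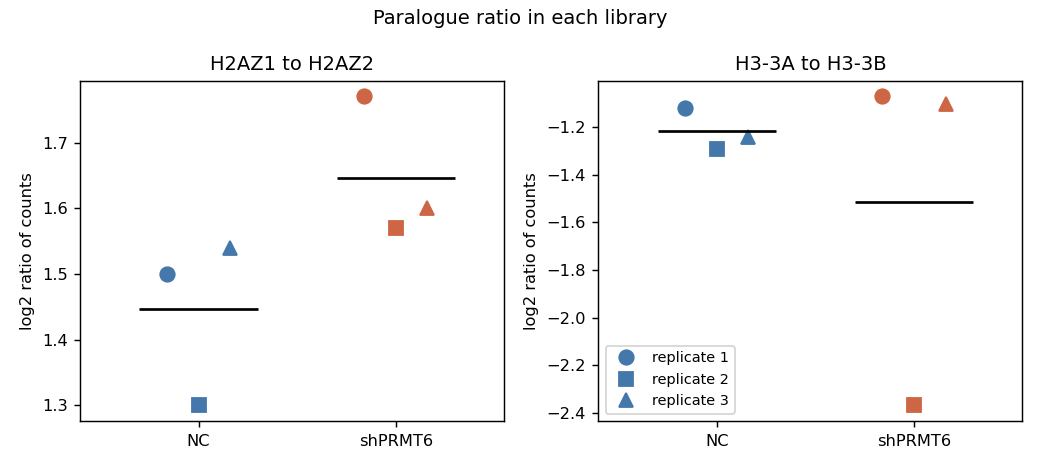
Log2 ratio of counts within each library for the paralogue pairs H2AZ1 to H2AZ2 (left) and H3-3A to H3-3B (right) in NC and shPRMT6; symbols mark the replicate number and lines the group mean. The H2A.Z ratio is 1.30 to 1.54 in NC and 1.57 to 1.77 in shPRMT6, whereas shPRMT6 replicate 2 alone reaches -2.37 in the H3.3 ratio.

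H1-10 encodes a linker histone of the H1 family, which sits on the DNA between nucleosomes. The gene has 1 exon, on chromosome 3 from 129314771 to 129316277 (minus strand). It had 3673, 4274 and 3885 counts in NC and 2304, 1989 and 1935 in shPRMT6, or 65.7, 56.2 and 62.2 CPM against 36.2, 32.3 and 28.6 CPM. The highest shPRMT6 library was well below the lowest NC library, and 19.9% of genes tested had groups apart in this direction by any margin. The mean fell from 61.4 ± 4.80 to 32.4 ± 3.81 CPM (SD, n = 3 each), to 52.7% of the control level. This is a log2 fold change of -0.92 (SE 0.11, 95% interval -1.19 to -0.66) with an adjusted p of 0.00313 in edgeR.

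Levels of different genes can be compared only per length, and the order of the members depended on which length was used. In the deposited FPKM values of NC, H2AZ1 led with 150 ± 13.1, followed by H3-3B (34.8 ± 2.62), H1-10 (34.1 ± 2.55), H2AX (25.6 ± 2.19), H3-3A (18.4 ± 2.52), H2AZ2 (17.8 ± 0.0569), MACROH2A1 (4.61 ± 0.241) and H2AJ (3.91 ± 0.762; SD, n = 3 each). H3-3B and H1-10, H3-3A and H2AZ2, and MACROH2A1 and H2AJ were neighbours whose means differed by less than the sum of their SDs. Lengths were worked back from counts and FPKM, with the summed gene counts of a library taken as its depth. They came to 21010 bases for MACROH2A1 and 8294 bases for H2AZ2. The joined exons of all annotated transcripts have 17730 and 4749 bases, and the principal transcripts only 2789 and 752 bases. Lengths worked back on this depth run high and are not the exact lengths behind FPKM. H1-10, with 1 annotated transcript of 1507 bases, came to 1795 bases, and H2AX, with 1614 bases of joined exons, to 1912 bases.

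Per kilobase of the principal transcript, in CPM without TMM scaling, the NC order was H2AZ1 (414.5 ± 35.5), H2AZ2 (197.2 ± 0.604), H3-3B (94.0 ± 7.08), H3-3A (83.9 ± 11.5), H1-10 (40.8 ± 3.03), MACROH2A1 (34.8 ± 1.83), H2AX (30.4 ± 2.56) and H2AJ (24.2 ± 4.70). H2AZ2 thereby moved from the sixth place to the second. H2AX and H2AJ were next to each other on this scale in NC, with means that differed by less than the sum of their SDs. In shPRMT6 they stood in the opposite order, at 11.8 ± 0.838 for H2AX and 31.1 ± 1.34 for H2AJ. In deposited FPKM, H2AX stayed above H2AJ in shPRMT6 as in NC, at 9.96 ± 0.719 against 5.06 ± 0.211. The order of these genes in shPRMT6 thus depended on the length chosen. Fold changes of 1 gene between groups use the same length on both sides and are not touched by this choice.

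**Figure D4:**
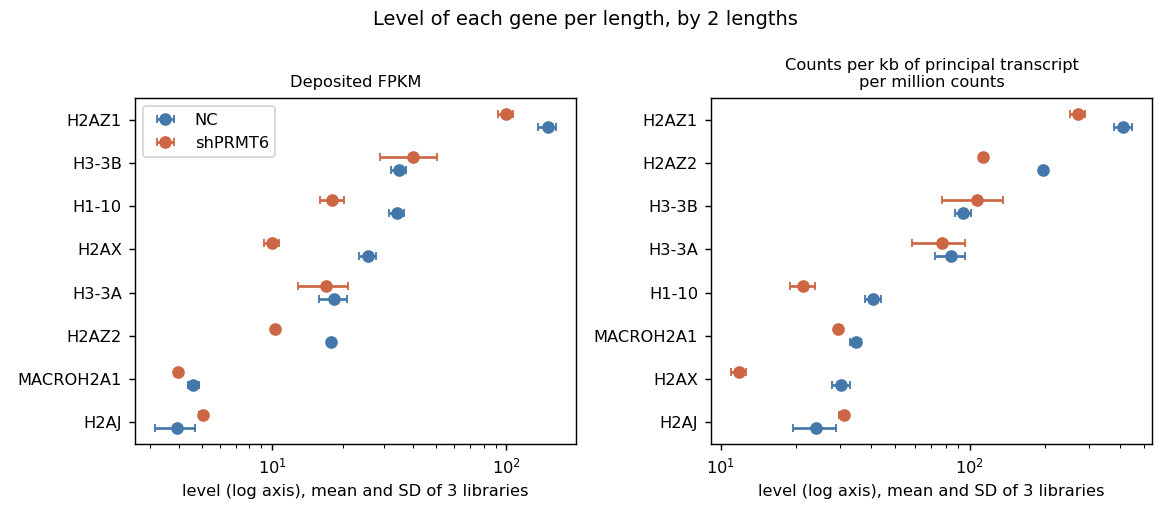
Level per length of the 8 detected histone variant genes in NC and shPRMT6 (mean and SD of 3 libraries, log axis): deposited FPKM (left) and CPM without TMM scaling per kilobase of the principal transcript (right), each panel sorted by NC. H2AZ1 is highest on both scales, and H2AZ2 moves from 17.8 FPKM, below H3-3B and H1-10, to 197.2 per kilobase, above both.

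Reads of some members can also come from other genes. Exons of H1-10, H2AZ1, H3-3A, H3-3B, MACROH2A1 and MACROH2A2 overlap exons on the opposite strand, and those of H2AX, H2AZ2 and H2AJ do not. The library kit does not mark strand, so reads within these overlaps cannot be told apart by strand. The use of strand in counting is not given in the sources used here. The partner of H1-10, H1-10-AS1, had 57 to 124 counts per library and a level of 1.35 CPM in NC and 1.34 CPM in shPRMT6, and the partner of H2AZ1, H2AZ1-DT, had 4 to 22 counts. PITX1-AS1, a partner of MACROH2A1, had 17 to 46 counts (0.527 CPM in NC and 0.328 CPM in shPRMT6). More expressed were UNK, the partner of H3-3B, with 1632 to 2331 counts (29.7 CPM in NC and 29.4 CPM in shPRMT6), and AIFM2, the partner of MACROH2A2, with 892 to 1436 counts. Levels of the other partner of MACROH2A1 and of the partner of H3-3A were not looked up. Of the 75-base windows of a member's exons, 27% in MACROH2A1, 14% in H1-10, 11% in H3-3A, 6.3% in H2AZ1, 3.71% in H3-3B and 1.62% in H2AZ2 also occur in the exons of another annotated gene, and none in H2AX or H2AJ. For MACROH2A1 and H1-10 these are genes on the opposite strand, and for H3-3A all 7 of these other genes are pseudogenes. Of 55 pseudogenes related to the members, 6 were tested and none passed in edgeR or DESeq2, with 1 (H2AZ2P1, lower) at an unadjusted p under 0.05. The best expressed were H3P16 (mean 5.12 FPKM in NC and 2.73 in shPRMT6, adjusted p 0.251), H3P6 (5.59 and 4.83, adjusted p 0.513) and H3P47 (2.05 and 2.63, adjusted p 0.42).

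The 250 bases before the annotated RefSeq start (GRCh38.p14) are shown for the 4 members that fell and for H3-3B, which did not pass the test, because several carry the CCAAT box, the element bound by the factor NF-Y in many histone and cell cycle promoters. They are written 5′ to 3′ on the strand of the gene in lower case, and capitals mark CCAAT or its complement ATTGG. H2AX covers chr11:119095466-119095715, H2AZ2 chr7:44848088-44848337, H2AZ1 chr4:99950276-99950525, H1-10 chr3:129316287-129316536 and H3-3B chr17:75779780-75780029, all on the minus strand.
H2AX: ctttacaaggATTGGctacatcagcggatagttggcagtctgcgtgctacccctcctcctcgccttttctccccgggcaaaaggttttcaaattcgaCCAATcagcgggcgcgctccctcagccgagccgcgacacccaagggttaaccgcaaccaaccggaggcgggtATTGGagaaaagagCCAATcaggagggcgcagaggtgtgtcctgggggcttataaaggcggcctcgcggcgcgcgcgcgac
H2AZ2: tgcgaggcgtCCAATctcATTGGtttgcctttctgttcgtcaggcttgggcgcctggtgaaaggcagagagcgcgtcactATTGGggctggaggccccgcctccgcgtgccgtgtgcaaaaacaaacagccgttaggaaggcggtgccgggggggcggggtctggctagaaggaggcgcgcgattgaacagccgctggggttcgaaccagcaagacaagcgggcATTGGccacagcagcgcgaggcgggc
H2AZ1: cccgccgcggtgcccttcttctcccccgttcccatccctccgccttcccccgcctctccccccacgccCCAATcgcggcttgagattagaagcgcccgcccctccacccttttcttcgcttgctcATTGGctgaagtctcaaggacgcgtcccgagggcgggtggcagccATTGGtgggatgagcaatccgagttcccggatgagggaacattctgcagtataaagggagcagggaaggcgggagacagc
H1-10: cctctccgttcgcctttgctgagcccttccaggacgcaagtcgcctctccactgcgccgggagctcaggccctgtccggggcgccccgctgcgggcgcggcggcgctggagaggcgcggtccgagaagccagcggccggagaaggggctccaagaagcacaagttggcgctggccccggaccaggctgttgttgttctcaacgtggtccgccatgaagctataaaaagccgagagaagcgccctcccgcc
H3-3B: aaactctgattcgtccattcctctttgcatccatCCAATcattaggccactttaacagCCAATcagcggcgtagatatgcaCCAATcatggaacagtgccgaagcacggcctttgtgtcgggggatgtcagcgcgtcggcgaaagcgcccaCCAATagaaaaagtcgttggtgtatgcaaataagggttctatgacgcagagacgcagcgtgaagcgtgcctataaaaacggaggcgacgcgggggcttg

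H2AX, H2AZ2 and H3-3B each held 4 CCAAT boxes, H2AZ1 and H2AJ held 3, and H1-10 held none. Among 35116 RefSeq promoters of this length, 32% held at least 1 CCAAT box on either strand, 2.93% at least 3 and 0.874% at least 4. The TATA box was searched as TATAAA and stood 28 bases before the start in H2AX, H2AZ1 and H1-10 and 26 bases before it in H3-3B, and is found in 10.7% of all promoters. H2AX also held TTTGAA, the letters of the cell cycle element CHR, which are found in 13.3% of all promoters. The letters searched for the E2F element, GCGGGAA, are found in 5.52% of all promoters. None of the promoters shown held them, and among the members only 1 promoter of H3-3A did. Members with 3 or 4 CCAAT boxes were among those that fell (H2AX, H2AZ2, H2AZ1) and among those that did not pass the test (H3-3B, H2AJ), and H1-10 fell without one in this window.

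The enzymes and chaperones that handle these variants were counted over lists. For H2A.Z deposition and removal, 6 of 22 genes tested fell in edgeR and in DESeq2 (27.3%, beside 9.06% of all genes in edgeR). None rose in either (0 higher at an unadjusted p under 0.05), and the median log2 fold change was -0.18. The genes that fell were not the same number in every fit. In edgeR they include ACTL6A (-0.46, SE 0.0644) and RUVBL2 (-0.49, SE 0.0723), subunits of the SRCAP and TIP60 remodelling complexes, and KAT5 (-0.52, SE 0.0894), the acetyltransferase of TIP60. SRCAP and EP400, the motor subunits, had log2 fold changes of -0.22 and -0.31 and adjusted p of 0.151 and 0.141 in edgeR. The count was 3 without NC replicate 2, NC replicate 3, shPRMT6 replicate 2 or shPRMT6 replicate 3.

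For the chaperones and readers of H3.3, 1 of 9 genes fell and 1 rose (together 22.2%, near the 18.6% of all genes), with a median log2 fold change of 0.15. DEK, which binds H3.3 and chromatin, had -0.58 (SE 0.144, adjusted p 0.0356 in edgeR), and HIRA, the chaperone that places H3.3 in genes, had 0.25 (SE 0.0636, adjusted p 0.0389 in edgeR). Neither passed when any 1 of the 6 libraries was left out, which leaves the count at 0. DAXX and ATRX, which place H3.3 at telomeres, had log2 fold changes of 0.08 and 0.13.

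For the kinases, phosphatases and readers that act on H2AX, 5 of 26 genes tested (19.2%) fell in edgeR and none rose. Of all genes, 9.06% fell, and 18.6% passed in either direction. In DESeq2, 2 genes of the list rose, and 3 were higher at an unadjusted p under 0.05 in edgeR. The median log2 fold change of the list was -0.00. Those that fell in edgeR included SSRP1, a subunit of the FACT histone chaperone (-0.63, SE 0.0541), NBN of the MRN break-sensing complex (-0.81, SE 0.0997), and the kinase PRKDC (-0.54, SE 0.128). The others were MDC1 (-0.29) and PPP2CA (-0.21), both named after their values were seen. The count was 2 without NC replicate 3, shPRMT6 replicate 1 or shPRMT6 replicate 2, and 3 without shPRMT6 replicate 3, all of them lower. Without NC replicate 2 it was 5, of which 2 were lower and 3 higher. The median log2 fold change of 7 macroH2A partners was -0.05. Of these, 1 passed in edgeR, downwards (14.3%, beside 9.06% of all genes downwards and 18.6% in either direction). It was PARP1, whose protein is bound by macroH2A, which fell by 0.76 on the log2 scale (SE 0.0559, adjusted p 0.000789 in edgeR). Of 10 further histone variant genes, 3 were tested. In edgeR 1 passed, downwards (33.3%, beside 9.06% of all genes downwards and 18.6% in either direction). This was CENPA, the H3 variant of centromeres, which fell from 9.05 to 5.16 CPM (log2 fold change -0.81, SE 0.132, adjusted p 0.00874 in edgeR).

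The chaperones that assemble nucleosomes behind the replication fork are not specific to variants, and 6 of 13 (46.2%, beside 9.06% of all genes) fell and none rose in edgeR (7 and 0 in DESeq2, 9 and 0 at an unadjusted p under 0.05), with a median log2 fold change of -0.53. Among them were ASF1B (-1.05, SE 0.109), the H3-H4 chaperone of dividing cells, MCM2 (-0.85, SE 0.0987), a helicase subunit that also holds histones, and CHAF1A (-0.57, SE 0.0653), the large subunit of CAF-1. Genes of S phase moved in the same direction: 28 of 42 (66.7%, beside 9.06% of all genes in edgeR) fell and none rose in edgeR and in DESeq2 (1 was higher at an unadjusted p under 0.05), with a median log2 fold change of -0.53. WDR76 (-0.75), POLA1 (-0.94) and TYMS (-0.83) had the smallest p, and 40 of 42 had a negative log2 fold change. The summed level of the S phase list was 3220.1 to 3402.0 CPM in NC and 2296.4 to 2369.7 CPM in shPRMT6. The list shares MCM2, NASP and CHAF1B with the chaperones above. The part of this shift in the lower RNA of H2AX, H2AZ1, H2AZ2 and H1-10 was not tested.

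The replication-dependent histone genes, whose products the variants replace, had more rises than falls. Of 68 genes, 47 were tested, of which 14 rose and 1 fell (together 31.9%, beside 18.6% of all genes) and 16 had a negative log2 fold change, with a median log2 fold change of 0.46. H2BC5 (2.83, SE 0.0913), H2BC12 (2.10, SE 0.112) and H4C8 (2.33, SE 0.217) had the smallest p, and H2BC9, named after its value was seen, fell by 0.97. The summed level of the list was 83.5 ± 5.37 CPM in NC and 218.7 ± 0.7 CPM in shPRMT6 (SD, n = 3 each). The sum in NC was below the 148.2 CPM of H2AZ2 alone. Genes for H2A made up 13.7 to 18.5 CPM of this in NC and 32.8 to 35.5 CPM in shPRMT6. Whether poly(A) RNA was selected is not given in the sources used here. What share of mRNAs that end in a stem-loop the libraries captured was not tested. The sums may therefore not describe the whole pool of replication-dependent histone RNA.

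**Figure D5:**
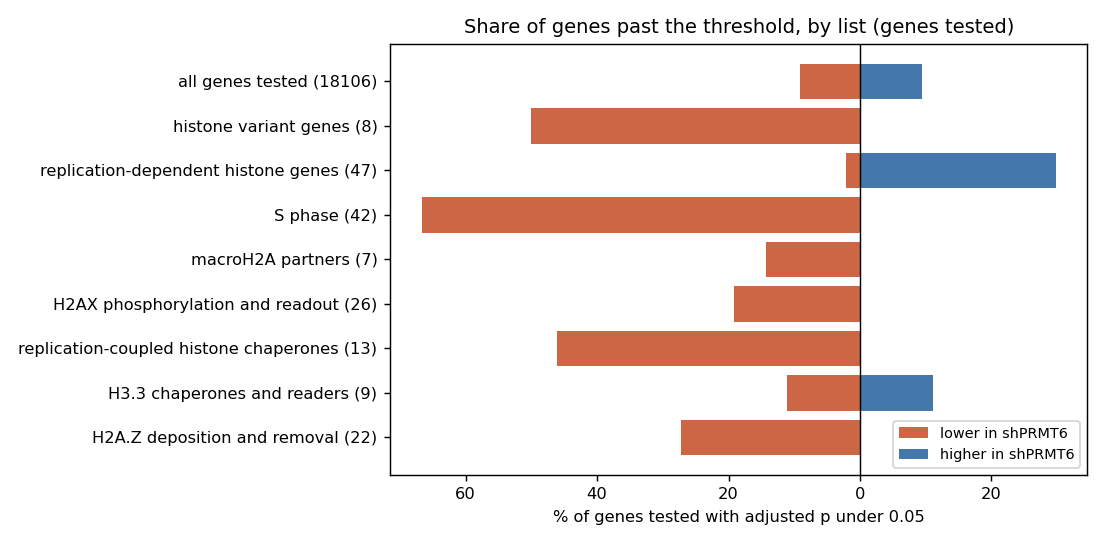
Share of the genes tested in each list that passed an adjusted p of 0.05 (x axis, %), lower in shPRMT6 to the left and higher to the right, with the number tested in brackets. The histone variant genes (50% lower), S phase (66.7% lower) and replication-coupled chaperones (46.2% lower) extend farthest left, beside 9.06% for all genes. H2A.Z deposition (27.3%), H2AX readout (19.2%), macroH2A partners (14.3%) and H3.3 chaperones also extend left of the bar of all genes. The replication-dependent histone genes extend mainly to the right.

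The genes whose level followed H2AZ2, the member with the smallest p, most closely over the 6 libraries were TPX2 (Pearson r = 0.9998), PDIA6 (0.9997), NUSAP1 (0.9997), PSAT1 (0.9997) and TSPAN13 (0.9996), out of 11324 genes compared. TPX2 and NUSAP1 encode proteins of the mitotic spindle, PDIA6 a disulfide isomerase and PSAT1 an enzyme of serine synthesis. Their log2 fold changes were -0.79, -1.54, -1.01, -0.75 and -0.50. The 6 points fall into the groups NC and shPRMT6, so that r here describes chiefly an even level within each group and is given without a test.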

How the data were processed

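The 6 U87 libraries, 3 NC and 3 shPRMT6, were prepared with a kit that does not mark strand (NEBNext Ultra RNA). Per the submitters' processing notes, HISAT2, HTSeq 0.13.5 and GRCh38 were used. The annotation release, the strand setting and any poly(A) selection are not given in the sources used here. The table that the authors deposited holds, per library, the raw read count of each gene, without normalization. Beside it the authors deposited FPKM, relative to gene length and library depth, with 0.0001 written for genes that have no counts. The library totals, 56388161 to 75887696 counts, set the counting precision.

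Counts were tested with edgeR 4.0.16 in R 4.3.3 (TMM scaling, its filter on low counts by group, quasi-likelihood test, Benjamini-Hochberg adjustment over 18106 genes, threshold 0.05), without a block for the replicate number. Values are CPM after TMM scaling with the SD over 3 libraries. Ratios within libraries were compared by exact two-sided permutation tests (SciPy 1.17.1, Python 3.11.15). Symbols matched 60401 of 60612 identifiers. Positions, exon overlaps and shared 75-base windows were taken from GENCODE 29 on GRCh38, and promoters from RefSeq on GRCh38.p14, with motifs read on both strands.

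The members and lists were chosen with earlier results of these data known. Named genes are the 9 members, PRMT6, the 3 genes with the smallest p past the threshold in each list, pseudogenes averaging at least 1 FPKM, and the 5 genes most correlated with the member of smallest p. Other names are background or were added after values were seen.

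The test was repeated with DESeq2 1.42.0. It was repeated in edgeR with upper quartile factors, with no scaling factors, with filters that asked for 10 counts in all libraries or for 1 count in at least one, with a replicate block, and with each library removed in turn. FPKM values were tested with limma 3.58.1 after adding 1 or 0.1 and taking log2, for genes averaging at least 1 FPKM, and after adding 1 for all genes. A threshold of 0.01 was also used. The proteome data were not analysed here. The values of 1 gene are not reported here.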

Additional observations from a re-analysis of the deposited data

How the results depend on the processing

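The 4 members that fell (H2AX, H2AZ1, H2AZ2 and H1-10) kept their direction in all 15 alternatives, and passed the threshold in all of them except limma on log2(FPKM + 1) without an FPKM filter, where 2 members passed and H1-10 and H2AZ1 had adjusted p of 0.0634 and 0.102. With one library left out the count of members was 4 or 5. The count over all genes was 1858 with the replicate block, 940 with limma without an FPKM filter, 1320 at an adjusted p under 0.01, and 1755 to 3183 with one library left out, against 3362. Limma without an FPKM filter also gave 1 gene for H2A.Z deposition and removal, 0 for H3.3 chaperones, 1 for replication-coupled chaperones, 1 for H2AX phosphorylation and readout, 0 for other histone variants, 11 for S phase and 6 for replication-dependent histone genes. At an adjusted p under 0.01 the counts were 2 for H2A.Z deposition, 0 for H3.3 chaperones and 2 for H2AX readout. With at least 1 count in any library they were 1 for H3.3 chaperones and 3 for H2AX readout. With one library left out they were 3 to 5 for H2A.Z deposition, 0 in each fit for H3.3 chaperones and 2 to 5 for H2AX readout, where the 5 without NC replicate 2 were 2 lower and 3 higher. The log2 fold change of H3-3A turned to 0.00 without NC replicate 1 and to 0.07 without shPRMT6 replicate 2 (range -0.25 to 0.07 with one library left out), that of H3-3B to -0.06 without shPRMT6 replicate 2 (-0.06 to 0.31), and the log2 ratio of H3-3A to H3-3B to 0.13 without that library (-0.51 to 0.13). Why these counts and directions moved was not tested. A stricter threshold on the same fit cannot raise a count, whereas leaving out a library can: without NC replicate 2 the members numbered 5. Same-numbered NC and shPRMT6 libraries did not deviate together (r = -0.0248, -0.0171 and -0.0301), so that the numbers were not taken as a pairing. With the replicate block, the members past the threshold numbered 4, H2A.Z deposition 2, H3.3 chaperones 1 and H2AX readout 2. The ratio of MACROH2A1 to MACROH2A2 could not be computed, and its alternatives were not run. Depth limits MACROH2A2 alone among the members.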
